A study of Mus musculus with 12 samples.

Results

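Antibody genes and the plasma cell genes Jchain and Mzb1 were followed in bulk RNA-seq of mouse liver at 3 ages. The set held every row that GENCODE M21 annotates as an immunoglobulin constant, variable, diversity or joining gene and that had at least 1 count in any liver, together with Jchain and Mzb1. This gave 169 genes of the 28449 genes with any count. Of the 264 annotated immunoglobulin segments in the table, 97 had no count.

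Livers were taken from C57BL/6N mice at 3 months of age (young), at 12 months (middle-aged) or at 18 months (aged). Each sample was 1 animal, 4 were given per age, and the study's methods describe male mice on a standard diet. The p-values below measure the spread between these livers. The labels' design text states 3 replicates per age and the extraction text names young and old livers only, so how the middle-aged livers were prepared is uncertain. Whole liver RNA mixes hepatocytes with resident and blood-borne immune cells. In such RNA, fewer cells of a type and less RNA per cell cannot be told apart.

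An antibody is made of heavy and light chains. Each chain gene is assembled in B cells from variable and joining segments, with a diversity segment in the heavy chain, and is spliced to a constant region. The heavy constant region sets the isotype, and class switching replaces IgM with IgG, IgE or IgA by joining the assembled segment to a constant gene further downstream. Plasma cells secrete antibody, and Jchain links the units of secreted IgM and IgA into polymers. In the liver, polymeric antibody is carried by the receptor encoded by Pigr.

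The 13 constant genes of the table all had counts. The heavy constant genes lay on the minus strand of chromosome 12 (GRCm38) in the order of transcription Ighm (chr12:113418558-113422730), Ighd (chr12:113406604-113416324), Ighg3, Ighg1, Ighg2b, Ighg2c, Ighe and Igha (chr12:113254830-113260236). The kappa constant gene Igkc lay at chr6:70726435-70726966, the lambda constant genes Iglc1 to Iglc4 on chromosome 16, and Jchain at chr5:88519809-88527891. Of the variable segments, 74 of 113 heavy, 73 of 100 kappa and 3 of 3 lambda segments were seen, and 1 of 2 segments whose names give no chain. Of the joining segments, 3 of 5 kappa segments were seen, and none of the 4 heavy or 5 lambda joining segments or the 19 diversity segments had a count. The most counted members were Ighm with 9301 counts and Igkc with 4171, whereas 64 members had at most 3 counts over the 12 livers.

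The IgG genes carry most of the calls described below, and they resemble each other, so the first 60 bases of their GENCODE M21 constant-region transcripts are shown, 5′ to 3′. Capitals mark bases that differ from Ighg2b at the same position.
Ighg2b: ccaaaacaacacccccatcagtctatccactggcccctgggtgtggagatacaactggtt
Ighg2c: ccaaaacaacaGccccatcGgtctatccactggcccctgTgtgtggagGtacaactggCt
Ighg1: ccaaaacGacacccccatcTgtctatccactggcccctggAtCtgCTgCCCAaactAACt
Ighg3: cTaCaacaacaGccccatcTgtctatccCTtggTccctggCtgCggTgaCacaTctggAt
Over this stretch Ighg2c differed from Ighg2b at 5 bases, and Ighg1 and Ighg3 each differed from it at 13. The longest identical run was 78 bases between the transcripts of Ighg2b and Ighg2c, 88 bases between Ighg2b and Ighg3, and 59 bases between Ighg1 and either Ighg2b or Ighg3. How reads within such runs were assigned is not given in the sources used here, so the split of counts among the IgG genes is less certain than their sum.

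The lambda constant genes are shown in the same way, with the first base of the Iglc2 transcript left off so that the frames align and with capitals for bases that differ from Iglc2, because Iglc2 and Iglc3 are near copies.
Iglc2: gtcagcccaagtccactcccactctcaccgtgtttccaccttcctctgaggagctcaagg
Iglc3: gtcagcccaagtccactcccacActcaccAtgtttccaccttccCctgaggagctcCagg
Iglc1: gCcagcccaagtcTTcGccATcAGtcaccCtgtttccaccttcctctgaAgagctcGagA
Iglc3 differed at 4 of the 60 bases and Iglc1 at 12. The longest identical run was 79 bases between Iglc2 and Iglc3 and 19 bases between Iglc1 and Iglc2.

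Each library held 8124312 to 10527159 gene counts, and immunoglobulin segments took 0.00253% to 0.0412% of them. At these depths 3 counts corresponded to 2.62 to 3.82 normalised counts, which are counts divided by the DESeq2 size factor of the library. Young replicate 3 (22284) and middle-aged replicate 1 (19982) had more genes detected than the other livers, which had 16361 to 17563. Young replicate 2 had 19.2% mitochondrial counts, against 5.48% to 10.7% in the other livers. Its spike-in share was also the highest (10.6%, against 1.59% to 6.23%). The spike-in profile separated replicates 1 and 2 from replicates 3 and 4 at every age (correlations of at least 0.997 within and at most 0.925 between these sets), so values are also given within each set. The liver label was borne out by albumin, with group means of 531500 to 657900 normalised counts.

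The summed immunoglobulin level was higher in both older groups than in young livers on average, with wide spread at 12 months. In young livers the sum over the 167 segments was 391, 278, 941 and 487 normalised counts in replicates 1 to 4. In middle-aged livers it was 517, 2632, 3721 and 1362. In aged livers it was 1161, 848, 1369 and 1855. Middle-aged replicate 1 lay within the young range, and young replicate 3 exceeded aged replicate 2, so the groups overlapped. The group mean was 524 ± 291 at 3 months, 2058 ± 1409 at 12 months and 1308 ± 423 at 18 months (SD, n = 4). The log2 ratio of means was 1.97 for 12 against 3 months and 1.32 for 18 against 3 months, and no test was made of a sum over the members. Within replicates 1 and 2 these ratios were 2.24 and 1.59, and within replicates 3 and 4 they were 1.83 and 1.18. For aged against middle-aged livers the ratio was -0.65, and without middle-aged replicate 3 and young replicate 3, the liver with the highest sum in each of these groups, it was -0.20.

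**Figure D1:**
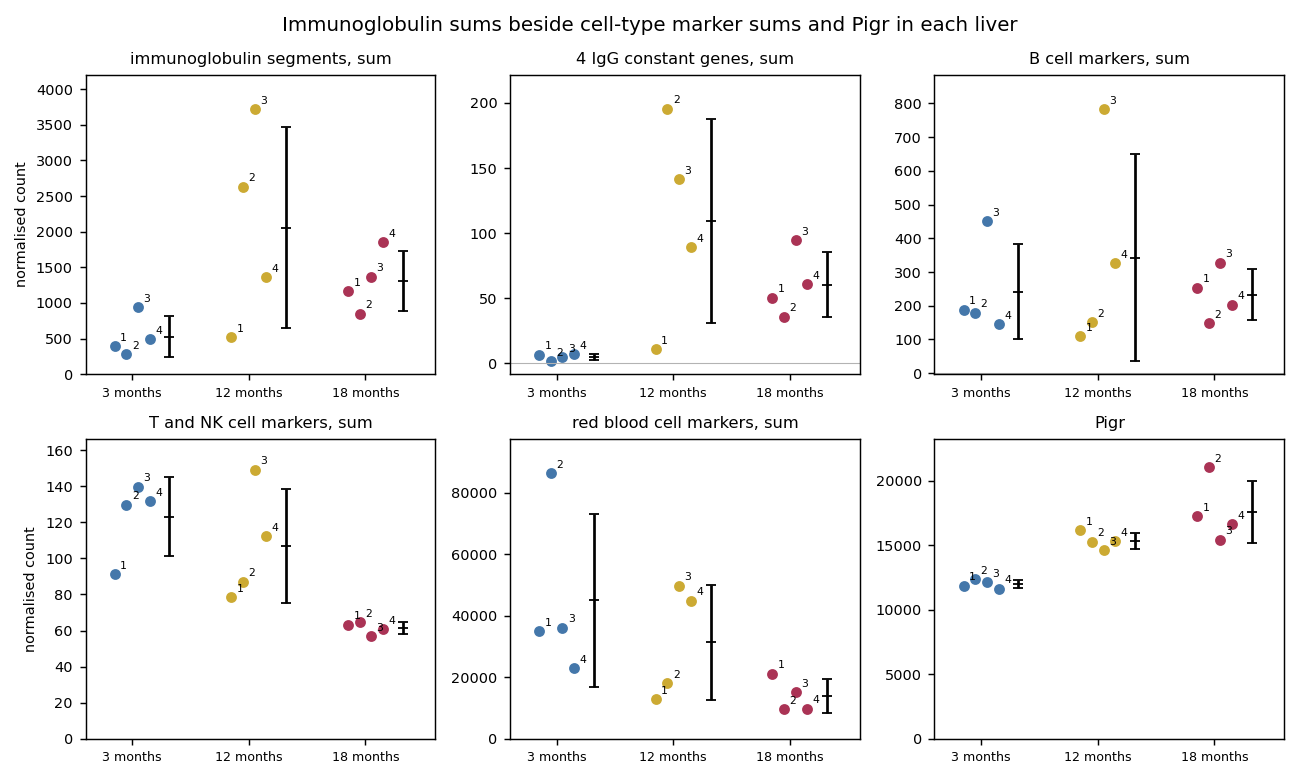
Normalised counts in each liver by age (numbers are replicates, bars mean ± SD, n = 4) for summed immunoglobulin segments, the 4 IgG genes, 3 marker lists and Pigr. The IgG sum of every older liver lies above the 4 young livers, which sit between 1.27 and 6.83, whereas the B cell marker sum overlaps between all ages.

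Calls were made by DESeq2 on all genes. Only members with enough counts received an adjusted p, 17 of 169 for 18 against 3 months, 7 for 12 against 3 months, 3 for 18 against 12 months and 11 for the 3 ages together. In aged against young livers 4 members were called, all higher, beside 3.58% of all genes called and 1.87% called higher. In middle-aged against young livers 4 members were called, all higher, beside 6.41% of all genes called and 3.51% called higher. In aged against middle-aged livers DESeq2 called 0 members, beside 1.14% of all genes, with 1 member at an unadjusted p under 0.05. Over the 3 ages together 3 members, Ighg2c, Ighg2b and Ighg1, were called, beside 6.96% of all genes. A member could receive an adjusted p because of the group in which it was high, so these shares are not comparable with a random draw of genes.

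The edgeR quasi-likelihood test on the same genes called 10 members for 18 against 3 months (3.09% of all genes), 16 for 12 against 3 months (4.06%), 6 for 18 against 12 months (1.57%) and 16 over the 3 ages (5.25%). Each member that edgeR called against young livers was higher, and the 6 called between 18 and 12 months were lower at 18 months. When edgeR was restricted to genes with at least 10 counts in at least 4 livers, which kept 11 members, it called 1, 2, 0 and 1 members, beside 1.4%, 2.31%, 0.107% and 1.89% of the 12174 genes. The number of members called therefore differed strongly between tests. The fitted fold changes of the IgG genes were above 0 against young livers in each of these tests that kept the gene. The restricted edgeR fit did not keep Ighg3.

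IgG constant genes, which mark class-switched B cells and plasma cells, were nearly silent in young livers. Their summed level was 6.37, 1.27, 4.74 and 6.83 normalised counts in young replicates 1 to 4. It was 10.9, 196, 141 and 89.2 in middle-aged and 50.2, 35.6, 94.4 and 60.8 in aged livers. All 8 older livers exceeded all 4 young livers, and middle-aged replicate 1 was the lowest of the 8. The 4 young libraries held 18 IgG counts in all, against 478 in the middle-aged and 263 in the aged libraries.

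Ighg2b was at 1.06, 1.27, 0 and 1.95 normalised counts in young livers, 1.99, 77.2, 38.9 and 34.1 in middle-aged livers, and 9.03, 8.67, 48.9 and 27.7 in aged livers. Every older liver lay above the young livers, middle-aged replicate 1 by very little. Ighg2b rose by a log2 fold change of 5.12 ± 1.07 (SE) at 12 months (DESeq2 adjusted p = 0.00026) and 4.43 ± 1.07 at 18 months (adjusted p = 0.00314). Within replicates 1 and 2 the 18-month log2 fold change was 2.93 (adjusted p = 0.711), and within replicates 3 and 4 it was 5.18. The 18-month call was made in all 12 fits that left out 1 liver (3.79 to 4.93) but not by edgeR restricted to genes with at least 10 counts in at least 4 livers (4.28, adjusted p = 0.0746), and limma called Ighg2b at neither age (adjusted p = 0.231 at 18 months and 0.113 at 12 months). At 12 months DESeq2 gave no adjusted p without young replicate 1 or middle-aged replicate 1, 2 or 4 (log2 fold changes over all left-out livers 4.51 to 5.61).

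Ighg2c, the C57BL/6 form of the IgG2a class, was at 3.18, 0, 3.56 and 3.91 normalised counts in young livers. It was at 3.97, 102, 76.8 and 38.1 in middle-aged and 20.1, 18.3, 19.2 and 11.6 in aged livers. The aged livers were closely grouped and did not overlap with the young livers. Ighg2c rose by a log2 fold change of 4.34 ± 0.80 at 12 months (DESeq2 adjusted p = 1.6e-05) and 2.67 ± 0.81 at 18 months (adjusted p = 0.0347). The 18-month call was lost without middle-aged replicate 3 and young replicate 3 (2.81, adjusted p = 0.0738) and in 5 of the 12 fits that left out 1 liver, those without young replicate 1, 2 or 3 or aged replicate 2 or 3 (2.28 to 2.91 over the 12, adjusted p up to 0.147). It was also lost with limma (adjusted p = 0.324) and restricted edgeR (0.148). At 12 months limma gave an adjusted p of 0.0774, and DESeq2 gave none without young replicate 1 or middle-aged replicate 1, 2 or 4 (3.86 to 4.71).

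Ighg1 was at 0 in young replicates 2 and 3 and at 2.12 and 0.976 normalised counts in replicates 1 and 4. It was at 2.98, 11.7, 15.01 and 10.02 in middle-aged and 13.1, 2.89, 19.2 and 10.7 in aged livers. Ighg1 rose at 18 months (log2 fold change 3.81 ± 1.06, DESeq2 adjusted p = 0.0166). Without middle-aged replicate 3 and young replicate 3 this value was 3.42 (adjusted p = 0.0664), and the call was also lost with limma (adjusted p = 0.113) and without young replicate 2 or 3 or aged replicate 3 (adjusted p up to 0.0918), with no adjusted p without aged replicate 1 (3.42 to 4.82 over the 12 fits). At 12 months the log2 fold change of Ighg1 was 3.60 ± 1.07, with no adjusted p because of the low-count filter.

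Ighg3 had 1 count in the young libraries, in replicate 3. It was at 1.99, 5.39, 10.6 and 7.02 normalised counts in middle-aged and 8.03, 5.78, 6.99 and 10.7 in aged livers. Ighg3 rose at 18 months (log2 fold change 4.54 ± 1.19, DESeq2 adjusted p = 0.00834). With a single young count this fold change has little to rest on, although young and older livers did not overlap. The call was made in 6 of the 12 fits that left out 1 liver (4.23 to 5.29). Without young replicate 2 the adjusted p was 0.0554, and without young replicate 1, middle-aged replicate 4 or aged replicate 1, 2 or 4, or with TMM scaling factors, DESeq2 gave none. Limma called Ighg3 (adjusted p = 5.47e-05), and restricted edgeR did not keep it. At 12 months the log2 fold change was 4.21 ± 1.19, with no adjusted p.

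**Figure D2:**
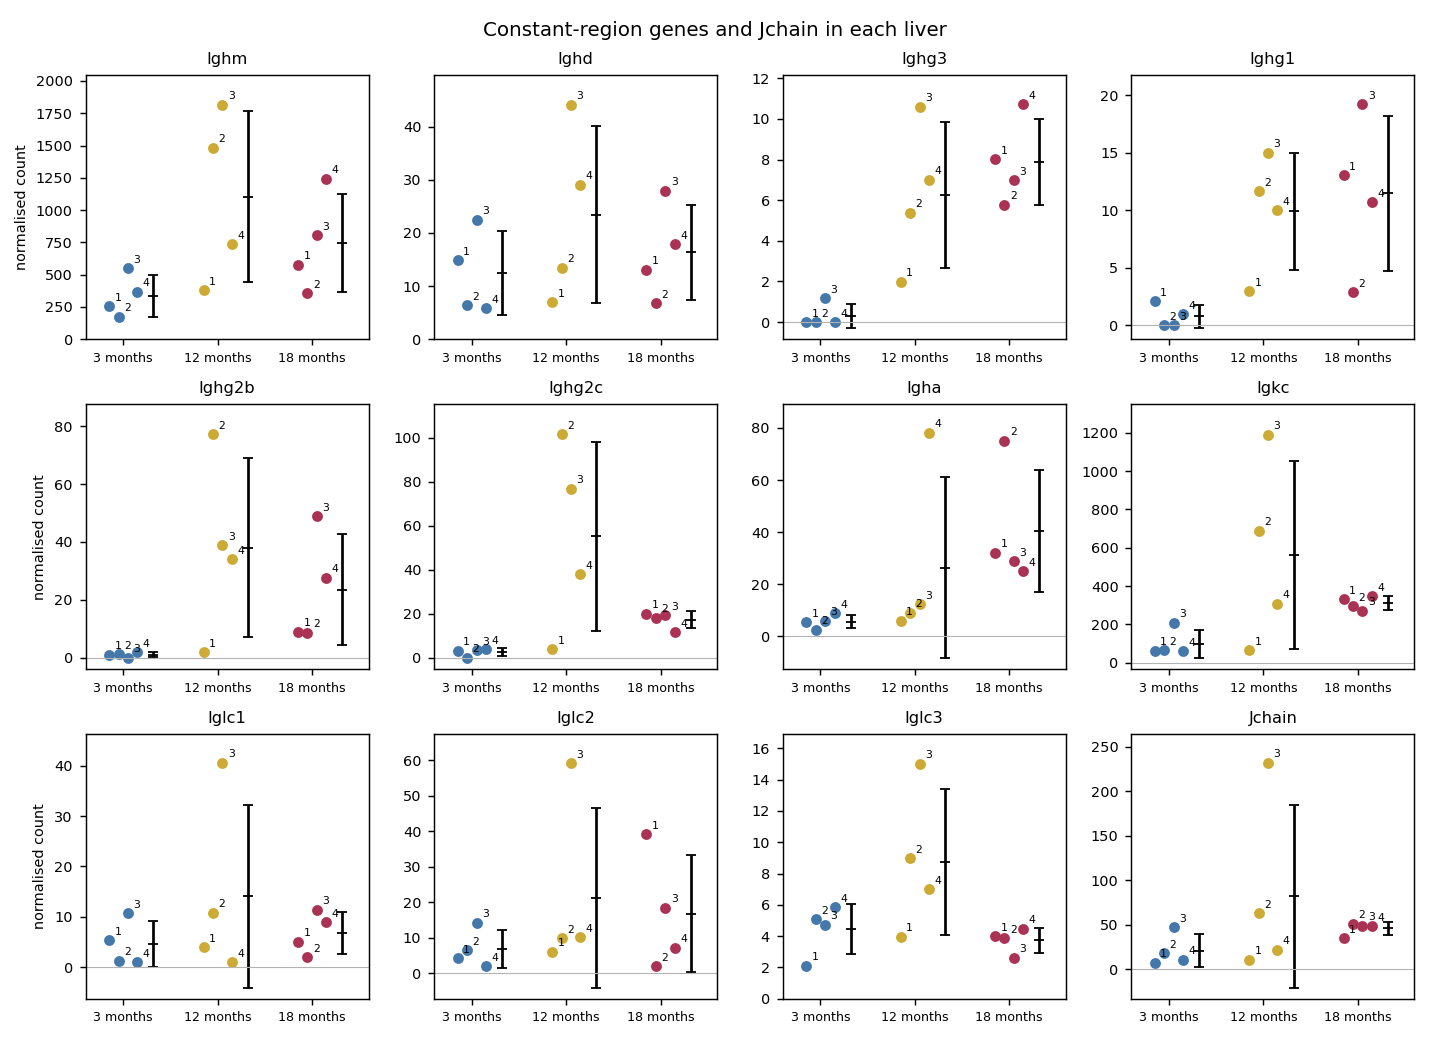
Normalised counts of 11 constant genes and Jchain in each liver by age (numbers are replicates, bars mean ± SD, n = 4; each panel has its own scale). The IgG genes are at or near 0 in all young livers, and Igkc sits between 271 and 348 in the 4 aged livers.

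Among IgG counts, Ighg2c took 50.6% at 12 months and 28.1% at 18 months, while Ighg2b took 34.7% and 39.9%, Ighg1 took 9.0% and 19.0%, and Ighg3 took 5.65% and 12.9%. These shares pool the 4 libraries of an age, so liver-to-liver spread is not in them, and the young share is not read because it rests on 18 counts. Between 12 and 18 months Ighg2c had a log2 fold change of -1.67 ± 0.67, which had no DESeq2 adjusted p (unadjusted p = 0.0131) and was called by edgeR (adjusted p = 6.07e-05), but not by edgeR restricted to genes with at least 10 counts in at least 4 livers (adjusted p = 0.367).

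Igha, the IgA heavy constant gene, was at 5.31, 2.55, 5.92 and 8.79 normalised counts in young livers. It was at 5.96, 8.98, 12.4 and 78.2 in middle-aged and 32.1, 75.1, 28.8 and 25.0 in aged livers. All aged livers exceeded all young livers, whereas 3 of the 4 middle-aged livers were at or near the young range and replicate 4 stood far above them. The log2 fold change was 2.82 ± 0.76 at 18 months and 2.21 ± 0.77 at 12 months. DESeq2 gave no p for Igha because of its rule on outlying counts. With that rule switched off the adjusted p was 0.0117 at 18 months and 0.0569 at 12 months. Igha was called at 18 months by edgeR on all genes (adjusted p = 3.12e-10) and not by edgeR restricted to genes with at least 10 counts in at least 4 livers (adjusted p = 0.0959).

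Ighm, the IgM heavy constant gene with which every B cell starts, was at 255, 176, 550 and 367 normalised counts in young livers. It was at 378, 1484, 1816 and 738 in middle-aged and 576, 357, 806 and 1242 in aged livers. Middle-aged replicate 1 and aged replicate 2 lay within the young range. Ighm rose at 12 months (log2 fold change 1.71 ± 0.56, DESeq2 adjusted p = 0.0398). This call was lost without middle-aged replicate 3 and young replicate 3 (1.71, adjusted p = 0.12), with limma (0.0761), with restricted edgeR (0.0746) and without any 1 of young replicates 1, 2 and 4 and middle-aged replicates 2, 3 and 4 (1.36 to 2.05 over the 12 fits, adjusted p up to 0.194). At 18 months the log2 fold change was 1.15 ± 0.56 (adjusted p = 0.282). Ighd, which naive B cells express beside Ighm, had group means of 12.4 ± 7.91, 23.4 ± 16.7 and 16.4 ± 8.95 normalised counts from young to aged (SD, n = 4) and log2 fold changes of 0.92 ± 0.63 (adjusted p = 0.41) and 0.41 ± 0.64 (adjusted p = 0.834). Ighe had 1 count in all, in an aged liver, and is given no fold.

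**Figure D3:**
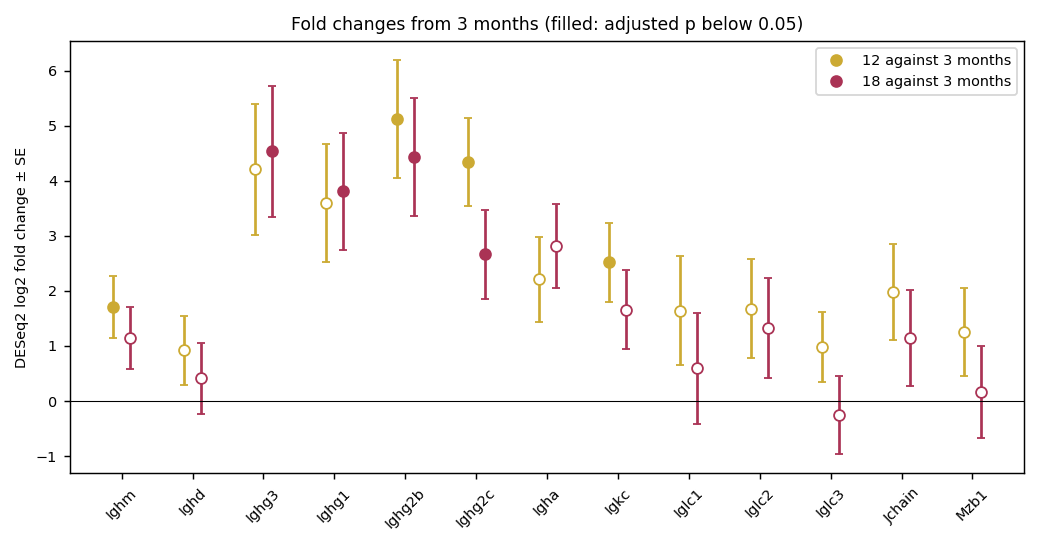
DESeq2 log2 fold changes ± SE from young livers for the constant genes, Jchain and Mzb1 at 12 months (yellow) and 18 months (red). Filled points were called. The 4 IgG genes lie between 2.67 and 5.12, above the other genes except Igha (2.82) at 18 months, and open points include Igha, for which DESeq2 gave no p, and Ighg1 and Ighg3 at 12 months, which had no adjusted p.

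Light chains moved less evenly. Igkc was at 62.6, 63.7, 209 and 59.6 normalised counts in young livers, 66.5, 690, 1190 and 309 in middle-aged livers, and 330, 295, 271 and 348 in aged livers. Every aged liver exceeded every young liver, and middle-aged replicate 1 was close to the 3 lower young livers. Igkc rose at 12 months (log2 fold change 2.52 ± 0.72, DESeq2 adjusted p = 0.0143). That call was lost with limma (adjusted p = 0.0601), with restricted edgeR (0.0557) and without young replicate 2 or 4 or middle-aged replicate 2 or 3 (1.85 to 3.19 over the 12 fits, adjusted p up to 0.123). At 18 months the log2 fold change was 1.66 ± 0.72 (adjusted p = 0.2), and without middle-aged replicate 3 and young replicate 3 it was 2.33 (adjusted p = 0.0159).

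The lambda constant genes were less abundant, and DESeq2 called none of them in any pair of ages, with no unadjusted p under 0.05. edgeR on all genes called Iglc2 at 12 months and no other lambda constant gene. Iglc2 ranged from 1.95 to 14.2 normalised counts in young, 5.96 to 59.2 in middle-aged and 1.93 to 39.1 in aged livers, and Iglc1 and Iglc3 also overlapped between all ages. Iglc4 had 2 counts in all. Lambda took 12.9% to 16.7% of light-chain constant counts in young livers, 4.12% to 17.3% in middle-aged and 2.55% to 12.7% in aged livers. The 4 young livers were the most alike, and the ranges overlapped.

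Per length, Igkc (610 normalised counts per kb of annotated exon) and Ighm (386 per kb) had the highest means over the 12 livers. Their order was not fixed, since Ighm exceeded Igkc per kb in 4 livers, young replicates 1 and 4, middle-aged replicate 1 and, narrowly, aged replicate 4 (658 against 654), and their young means were 179 and 185 per kb. Igkv5-39 (33.9 per kb), Iglc2 (24.3 per kb), Jchain (19.7 per kb) and Ighg2c (18.9 per kb) were far lower, and their ranges over the 12 livers overlapped.

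IgM made up most heavy-chain constant counts at every age. Its share was 90.6% to 94.5% in young, 79.0% to 94.1% in middle-aged and 75.2% to 92.3% in aged livers. The IgG share was 2.26%, 0.685%, 0.813% and 1.76% in young replicates 1 to 4. It was 2.72%, 11.5%, 7.01% and 9.55% in middle-aged and 7.47%, 7.51%, 9.85% and 4.52% in aged livers. All older livers lay above all young livers in IgG share, with middle-aged replicate 1 closest to them. In young replicate 2 the share rested on 1 of 146 counts (95% Wilson interval 0.121% to 3.78%), and in aged replicate 4 on 68 of 1505 (3.58% to 5.69%). For middle-aged replicate 1 it rested on 11 of 405 counts (1.52% to 4.8%). Young replicate 1 had 6 of 265 (1.04% to 4.85%), an interval that overlapped those of middle-aged replicate 1 and aged replicate 4. The order of these livers is therefore within counting error. The mean IgG share was 1.38% ± 0.759 at 3 months, 7.69% ± 3.79 at 12 months and 7.34% ± 2.19 at 18 months (SD, n = 4).

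The IgA share was 1.89%, 1.37%, 1.02% and 2.26% in young livers and 1.48%, 0.527%, 0.614% and 8.37% in middle-aged livers. In aged livers it was 4.78%, 15.8%, 3.01% and 1.86%. Aged replicate 4 lay within the young range, so the IgA share overlapped between ages although the Igha level in aged and young livers did not. Aged replicate 2, with the highest IgA share, had 78 Igha counts among 493 heavy constant counts.

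**Figure D4:**
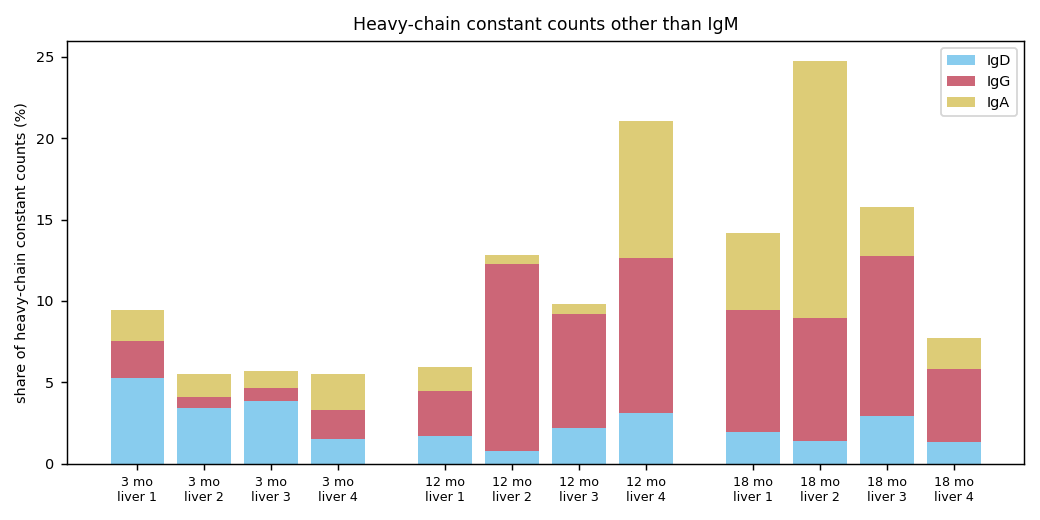
Percent of heavy-chain constant counts taken by IgD, IgG and IgA in each liver, with IgM making up the remainder. IgG takes 0.685% to 2.26% in the young livers and 2.72% to 11.5% in the older livers, and middle-aged replicate 4 and aged replicate 2 stand out by IgA.

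Jchain was at 7.43, 17.8, 47.4 and 10.7 normalised counts in young livers, 10.9, 62.9, 232 and 22.1 in middle-aged livers, and 35.1, 51.1, 48.9 and 48.3 in aged livers. The aged livers were closely grouped, and young replicate 3 lay among them. Its log2 fold change was 1.98 ± 0.87 at 12 months (DESeq2 adjusted p = 0.148) and 1.14 ± 0.87 at 18 months (adjusted p = 0.58). Without middle-aged replicate 3 and young replicate 3 these were 1.44 (adjusted p = 0.179) and 1.95 (adjusted p = 0.0197), so the 18-month call depended on those livers. edgeR on all genes called Jchain in each pair of ages, higher at 12 months (2.04, adjusted p = 3.25e-12) and 18 months (1.19, adjusted p = 0.000676) than at 3 months and lower at 18 than at 12 months (-0.85, adjusted p = 0.0285). Neither restricted edgeR (adjusted p = 0.159, 0.481 and 0.779 in that order) nor limma (0.271, 0.334 and 0.915) called it. Mzb1, an endoplasmic reticulum protein that aids antibody assembly, ranged from 1.95 to 13.03 in young, 3.97 to 36.2 in middle-aged and 3.01 to 9.61 in aged livers. It was not called in any pair of ages by DESeq2 or edgeR.

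Jchain and Igkc were correlated across the 12 livers (Pearson r = 0.919, permutation p = 7e-05, Benjamini-Hochberg adjusted p = 0.00035 over 5 relations, Spearman rho = 0.832, p = 0.00148, adjusted p = 0.0074, on log2 of the normalised count + 1). Without the 2 livers farthest from the median of Jchain r was 0.874, and within replicates 1 and 2 and replicates 3 and 4 it was 0.931 and 0.914. For Jchain with Mzb1, r was 0.819 (permutation p = 0.00155, adjusted p = 0.00387) and rho 0.713 (p = 0.0115, adjusted p = 0.02), but r was 0.682 without the 2 farthest livers (adjusted p = 0.0554) and 0.467 and 0.967 within the sets, so this relation rested partly on those livers. For Ighm with Jchain, r was 0.778 (permutation p = 0.00293, adjusted p = 0.00488) and rho 0.713 (p = 0.012, adjusted p = 0.02), with r = 0.719 without the 2 farthest livers (adjusted p = 0.0554) and 0.675 and 0.867 within the sets. These values pool the ages. On deviations from the group means, r was 0.91, 0.854 and 0.707 in the order given (permutation test, adjusted p = 0.00035, 0.00132 and 0.0143). There rho was 0.832, 0.657 and 0.573 (adjusted p = 0.0061, 0.0603 and 0.0929), so by rank only Jchain with Igkc still passed.

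No relation was detected between Jchain and Igha (r = 0.307, permutation p = 0.332, adjusted p = 0.332, rho = 0.469, p = 0.126, adjusted p = 0.157). Without the 2 farthest livers r was 0.373, and within the sets it was 0.635 and -0.144. Likewise Ighm with Cd79b, a B cell receptor subunit, gave r = 0.337 (permutation p = 0.282, adjusted p = 0.332) and rho = 0.308 (p = 0.33, adjusted p = 0.33), with r = 0.0878 without the 2 farthest livers and -0.45 and 0.694 within the sets. The 10 genes outside the set whose ranks over the 12 livers were most like those of Jchain, among the 11795 genes averaging 10 or more normalised counts, were Id4 (rho = 0.909), Zfp39 (0.874), Csnk2a2, Eda and Slc17a5 (0.867 each), Zfp7 (0.853), Pgm2l1 and Rab30 (0.846 each), and Ctnnbip1 and Senp6 (0.832 each). None of them belonged to the B cell or plasma cell lists. The rho of Jchain with Igkc (0.832) equalled the lowest of these values. Among 11795 genes ranked over only 12 livers, some high values arise without any relation. The 10 values were not tested, so the list is descriptive and no relation to Jchain is read from it.

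Variable segments were thinly counted, with 1462 counts in all. Young libraries held 175 of these over 74 segments, middle-aged libraries 825 over 124 segments and aged libraries 462 over 108 segments. No segment was seen in all 12 livers, and 34 were seen in a single liver. A liver had 9 to 49 segments at 3 months, 27 to 95 at 12 months and 32 to 63 at 18 months, and this number followed the number of counts. Scaled to 12 counts, the total of the shallowest liver, the expected number of segments was 9.0 to 10.8 in young, 9.37 to 11 in middle-aged and 8.98 to 10.5 in aged livers, with no separation of the ages at this depth. Heavy variable counts amounted to 4.45 per 100 heavy constant counts over all livers, and kappa variable counts to 21.9 per 100 kappa constant counts.

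The most abundant variable segments were Igkv5-39 (chr6:69900424-69900977), Igkv1-117 and Igkv3-2 of the kappa locus, Ighv1-53, Ighv9-3 and Ighv5-4 of the heavy locus, and Iglv1, Iglv3 and Iglv2 of the lambda locus. Igkv5-39 had 1, 1, 4 and 0 counts in young, 1, 4, 64 and 19 in middle-aged and 2, 15, 7 and 35 in aged livers. It was the most counted segment in 4 livers, middle-aged replicates 3 and 4 and aged replicates 2 and 4, where it took 14.1% to 22.2% of variable counts. Its log2 fold change was 3.53 ± 1.18 at 12 months (no adjusted p) and 2.96 ± 1.18 at 18 months (DESeq2 adjusted p = 0.152).

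Single livers carried much of the count of other segments. Igkv3-2 and Ighv1-53 were highest in middle-aged replicate 2 (34 of 71 and 28 of 49 counts), Igkv1-117 in middle-aged replicate 3 (45 of 79), and Iglv3 was equally high in middle-aged replicate 3 and aged replicate 1 (10 of 29 each). Ighv9-3 had 13 of its 33 counts in middle-aged replicate 3 and 12 in aged replicate 4. Igkv3-4, which the naming rule did not pick, was at 0 in all young livers. It had 1, 18, 13 and 1 counts in middle-aged and 3, 4, 0 and 4 in aged livers. Its group mean was at least 8.79-fold higher at 12 months and at least 3.1-fold higher at 18 months, taking 3 counts over the young group as the floor. The 12-month mean was carried by replicates 2 and 3. Igkv6-32, which was singled out after its values were seen, ran the other way, with 4, 3, 4 and 4 counts in young, 1, 0, 1 and 0 in middle-aged and 0, 1, 2 and 1 in aged livers. It was called lower at 12 months by limma alone among the 3 tools.

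**Figure D5:**
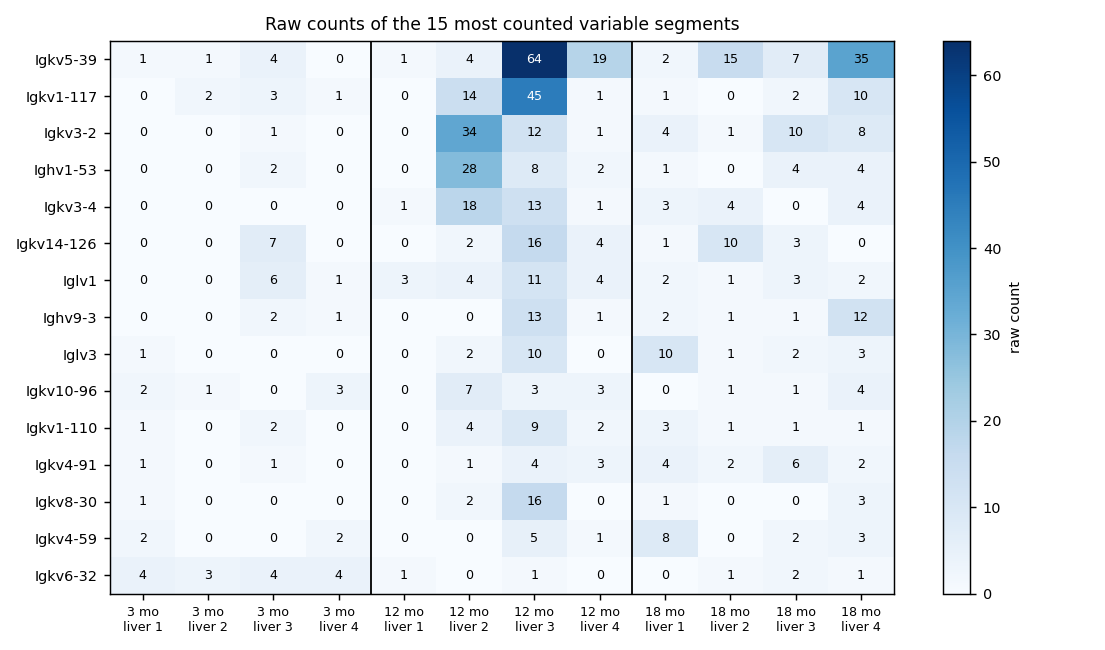
Raw counts of the 15 most counted variable segments (rows) in each liver (columns, by age), with colour and printed number giving the count. Igkv5-39 has 64 of its 153 counts in middle-aged replicate 3, and Ighv1-53 has 28 of 49 in middle-aged replicate 2.

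Variable segments share long stretches with their relatives. The longest identical run was 142 bases between Igkv1-117 and Igkv1-110, 105 bases between Ighv1-53 and Ighv1-69, 104 bases between Iglv1 and Iglv2, and 49 bases between Igkv5-39 and Igkv5-43. Counts of single segments are therefore uncertain where a read matches more than 1 segment.

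B cell markers gave few calls, and no test compared them with the immunoglobulin genes. DESeq2 called 0 of 18 markers in each pair of ages, of which 18, 8 and 4 received an adjusted p for 18 against 3, 12 against 3 and 18 against 12 months. In the same order 0, 1 and 0 had an unadjusted p under 0.05, and edgeR on all genes called 0, 1 and 0. Cd79a, a B cell receptor subunit, was at 11.7, 17.8, 46.2 and 6.83 normalised counts in young, 7.94, 7.18, 73.3 and 33.1 in middle-aged and 19.1, 6.74, 19.2 and 16.1 in aged livers. The summed markers were 188, 180, 450 and 146 in young, 110, 152, 782 and 326 in middle-aged and 254, 147, 328 and 203 in aged livers. Middle-aged replicate 3 and young replicate 3 were highest in their groups for both B cell markers and the immunoglobulin sum, whereas middle-aged replicate 2 had the second-highest immunoglobulin sum (2632) and a B cell marker sum of 152. The part of B cell number in the immunoglobulin values was not tested. Over the 12 B cell markers with a mean of at least 10, the median log2 fold change was 0.61 at 12 months and -0.03 at 18 months, beside 0.00776 and 0.00792 over all 11804 genes at that level. Over the 9 members with such a mean it was 2.21 and 1.66. Some of these members, such as Ighg2b and Ighg2c (young means 1.07 and 2.66), reached that mean only through the older livers. Their median is therefore not comparable with that of all genes or of the B cell markers.

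Calls among the 15 plasma cell genes other than Jchain and Mzb1 differed between tests. DESeq2 called 1 at each older age against 3 months, whereas edgeR on all genes called Fkbp11 and Xbp1 at 18 months and Fkbp11, Pou2af1, Sdc1 and Xbp1 at 12 months. Pou2af1, a B cell coactivator, was at 5.31, 3.82, 9.48 and 0.976 normalised counts in young, 7.94, 7.18, 35.3 and 14.03 in middle-aged and 11.04, 1.93, 15.7 and 4.47 in aged livers, with a log2 fold change of 1.74 ± 0.79 at 12 months and no DESeq2 adjusted p. The plasma cell receptor gene Tnfrsf17 was seen in young replicate 3 and middle-aged replicate 3 only (2.37 and 2.65 normalised counts), under the floor of 3 counts. The transcription factors Prdm1 and Irf4 had means of 3.39 and 4.36 over the 12 livers. By DESeq2, Fkbp11, a chaperone of secretory cells, fell at 18 months (log2 fold change -1.34 ± 0.39, DESeq2 adjusted p = 0.0259), although aged replicate 1 (119) lay within the young range of 118 to 190, and Sdc1, which hepatocytes express too, rose at 12 months (0.45 ± 0.10, adjusted p = 0.000468). Xbp1, the secretory transcription factor that hepatocytes also need, had a log2 fold change of -0.56 ± 0.20 at 18 months (adjusted p = 0.0912).

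Of the 9 antibody receptor and transport genes, Pigr alone was called by DESeq2. It was at 11870, 12360, 12150 and 11620 normalised counts in young, 16150, 15260, 14620 and 15310 in middle-aged and 17250, 21020, 15430 and 16620 in aged livers. All older livers exceeded all young livers. Pigr rose by a log2 fold change of 0.35 ± 0.09 at 12 months (adjusted p = 0.00437) and 0.55 ± 0.09 at 18 months (adjusted p = 7.12e-07). edgeR called it at 18 months only. Fcgrt, the neonatal Fc receptor that recycles IgG, had a log2 fold change of 0.19 ± 0.09 at 18 months (adjusted p = 0.224).

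Among B cell survival and homing factors, Cxcl12, a chemokine that retains plasma cells in marrow, rose by 0.41 ± 0.10 at both 12 months (DESeq2 adjusted p = 0.00266) and 18 months (adjusted p = 0.00353). Cxcl13, the only other gene of this list averaging 10 or more, was at 0.94 ± 0.75 and -0.78 ± 0.76 (adjusted p = 0.496 and 0.692). For 18 against 12 months Cxcl13 was at -1.72 ± 0.75 (adjusted p = 0.35). edgeR on all genes called Cxcl12 at both older ages, and Cxcl13 at 12 months and for 18 against 12 months. Of the early B cell and germinal centre genes, Dntt, which encodes the terminal transferase of junction formation, rose at 18 months (0.83 ± 0.26, adjusted p = 0.0415), and S1pr2, a receptor that holds cells in germinal centres, rose at 12 months (0.83 ± 0.23, adjusted p = 0.0114). DESeq2 called no other gene of this list against young livers. edgeR on all genes called Dntt at 18 months, Bcl6 and S1pr2 at 12 months, and Bcl6 for 18 against 12 months. By DESeq2, Bcl6 was at -0.91 ± 0.82 and Mki67 at -0.47 ± 0.43 at 12 months, and -0.08 ± 0.82 and -0.76 ± 0.44 at 18 months. Over the 4 genes of the list averaging 10 or more, the median was 0.03 at 12 months and 0.26 at 18 months. Rag1 had no count and Rag2 had a mean under 1 normalised count.

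Markers of other blood-borne and resident cells were also followed. Summed T and NK cell markers were 91.3 to 140 in young, 78.4 to 149 in middle-aged and 56.8 to 64.5 normalised counts in aged livers, below every younger liver. DESeq2 called 0 of the 14 T and NK markers in any pair of ages, with 4, 0 and 2 at an unadjusted p under 0.05 in the same order, and edgeR called 0. The marker Cd3e had a mean of 3.39. Summed red blood cell markers ranged from 22980 to 86390 in young, 12830 to 49870 in middle-aged and 9673 to 21230 in aged livers. By DESeq2, Alas2 and Hbb-bs fell at 18 months (log2 fold changes -0.60 ± 0.18 and -1.67 ± 0.53, adjusted p = 0.0255 and 0.0498). All 6 of these markers had a DESeq2 unadjusted p under 0.05 for aged against young and for aged against middle-aged livers. In both of these pairs edgeR on all genes called all 6. For middle-aged against young livers edgeR called Hba-a1, Hba-a2, Hbb-bs and Hbb-bt. Kupffer cell markers summed to 3884 to 7051, 3439 to 4672 and 4026 to 6721 from young to aged. Marco, a scavenger receptor, was the only marker of the 10 that DESeq2 called at 18 months (2.46 ± 0.69, adjusted p = 0.0178). It was highest in aged replicate 1 (790.8 normalised counts), against 96.1 to 261 in the other aged livers and 36.7 to 79.1 in young livers. edgeR on all genes called Marco alone for aged against young and for aged against middle-aged livers. For middle-aged against young livers edgeR called C1qa, C1qb, C1qc, Clec4f and Marco. What part blood content had in the immunoglobulin values was not tested.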

How the data were processed

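Gene-level read counts were deposited by the authors as raw counts in a single table of 53465 genes and 92 spike-in RNAs for 12 livers. The submitters' processing notes name STAR 2.5.2b, SAMtools 1.9, featureCounts and genome build mm10 (GRCm38) without roles. Whether counting used strand is not given in the sources used here. Spike-ins were removed, and gene types and coordinates were taken from GENCODE M21.

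Counts were scaled by DESeq2 median-of-ratios size factors. All genes with at least 1 count were fitted together with DESeq2 1.42.0 (R 4.3.3) over the 12 livers, with Wald tests for pairs of ages and a likelihood ratio test for the 3 ages. P-values were Benjamini-Hochberg adjusted over all genes and called at 0.05. DESeq2 gives no adjusted p to genes that its low-count filter removes, and no p to genes with an outlying count by Cook's distance. edgeR 4.0.16, limma 3.58.1, other scalings, filters and subsets were alternatives. The fits were tested on simulated counts. Shares carry 95% Wilson intervals. Intervals and floors (3 counts) cover counting error only.

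Genes were named by rule: all constant genes, Jchain, Mzb1, the 3 most abundant variable segments per chain, called genes of the marker lists, a set of lineage genes, and the 10 genes whose pattern was most like Jchain. The members and lists were chosen with earlier results of these data known. The alternatives without middle-aged replicate 3 and young replicate 3, with edgeR on genes of at least 10 counts in at least 4 livers, and without the Cook's distance rule were added after seeing the data. Replicate numbers did not pair livers across ages (correlations of deviations between -0.303 and 0.159 over 8888 genes). Replicates of an age differed beyond sampling noise (smallest mean chi-square per gene 11.2). Values of some marker list genes are not reported here.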

Additional observations from a re-analysis of the deposited data

Results flagged for a closer look

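Of 108 groups of 4 livers examined, 13 held a liver far from the other 3 by Dixon's test. For independent, normally distributed values chance alone flags about 1 in 20 (5.4 here). These groups are skewed counts, some near 0, and several flags share the same counts, so no excess over chance is read from the 13. Young replicate 3 stood above the other young livers in Igkc, which is also the kappa constant sum (208.5 against 59.6 to 63.7 normalised counts), in the lambda constant sum (31.99 against 8.79 to 12.7), in Ighg3 (1.185 against 0, which is 1 count, and the ratio is at its maximum whenever a single liver has any count, so nothing is read from it) and in the B cell markers (450.3 against 146 to 188). Middle-aged replicate 3 stood above its group in the lambda constant sum (114.8), Iglc2 (59.16) and Mzb1 (36.2). Middle-aged replicate 4 stood above its group in Igha (78.17 against 5.96 to 12.4) and in IgA share (8.369% against 0.527% to 1.48%), and aged replicate 2 in Igha (75.13 against 25.0 to 32.1). Aged replicate 1 lay below its group in the sum of Jchain and Mzb1 (38.14 against 55.9 to 58.6), and young replicate 1 in IgM share (90.57% against 94.3% to 94.5%).

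Immunoglobulin pseudogene and IG_LV rows, which the set leaves out, held 10 counts over the 12 livers, with 4 in young replicate 3, 3 in middle-aged replicate 1 and at most 1 in any other liver.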

How the results depend on the processing

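For the constant genes, Jchain, Mzb1 and Igkv5-39, 913 of 1074 fold changes under alternatives kept direction and side of the threshold, 66 lost a call, 64 gained one and 31 changed sign without a call in either fit. No called fold change changed sign. Where a cause is not named, it was not tested.

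Counts of members called for 18 against 3 months, 12 against 3 months, 18 against 12 months and the 3 ages were 10, 16, 6 and 16 with edgeR on all genes, 1, 2, 0 and 1 with edgeR on genes of at least 10 counts in at least 4 livers, and 1, 9, 1 and 7 with limma. Over all genes DESeq2 called 484, 727, 117 and 865, against 880, 1154, 446 and 1494, 170, 281, 13 and 230, and 227, 262, 89 and 401 with these tools. The limma calls were 0.798%, 0.921%, 0.313% and 1.41% of all genes tested. Spike-in size factors called 16 of 39, 29 of 87, 0 of 169 and 23 of 49 members tested, beside 58.2%, 62.9%, 0.0106% and 67.0% of all genes tested. These factors moved the median of all genes by 1.16 and 1.48 (log2) against young livers, beside 2.47 and 3.61 for the immunoglobulin sum. DESeq2 on genes of at least 10 counts in at least 4 livers called 2 members for 18 against 3 months (4.02% of all genes), and the spike-in set as a covariate called 6 over the 3 ages (7.1%). Replicates 1 and 2 alone gave 1 and 1 for 18 and 12 against 3 months (1.24% and 2.18% of all genes), and replicates 3 and 4 alone gave 1 and 0 (4.2% and 3.64%). Over all genes spike-in size factors called 8839, 11623, 3 and 10532, and the replicate block 655, 385, 426 and 451 (2.85%, 3.23%, 1.5% and 3.47% of those tested). For members the replicate block gave 10, 5, 2 and 5, but the numbers pair no livers, no liver correlated best with its own number in both other ages, and some of these calls were segments with very few counts. Leaving out 1 liver gave 1 to 6, 0 to 7, 0 to 1 and 2 to 11, beside 1.77% to 10.5%, 2.83% to 9.72%, 0.322% to 1.85% and 3.85% to 13.3% of all genes tested. The lowest came without young replicate 2 (1, aged against young) and without middle-aged replicate 2 (0, middle-aged against young), and the highest without middle-aged replicate 1 (6 and 11) and without young replicate 3 (7).

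Sign changes of uncalled values were as follows. Within replicates 1 and 2, Ighd was -0.11 and -0.06 against young at 18 and 12 months, Iglc3 0.15 and Mzb1 -0.04 at 18 months, and, aged against middle-aged, Iglc2 was 1.37, Jchain 0.23 and Igkv5-39 1.84. Within replicates 3 and 4, Ighg2b was 0.08 and Igha -0.74 aged against middle-aged. With spike-in size factors, Iglc3 was 1.04 at 18 months, and Ighg3 -0.04 and Ighg1 -0.16 aged against middle-aged, where limma gave -0.19 for Ighg1. With the replicate block, Jchain was 0.04 and Igkv5-39 0.21, and with the spike-in set Igkv5-39 was 0.10. Leaving out livers gave Mzb1 -0.13 to 0.95 at 18 months (0.96 without both young replicate 3 and middle-aged replicate 3) and, aged against middle-aged, Ighg1 -0.16 to 0.53, Iglc1 -1.43 to 0.37, Iglc2 -1.22 to 0.94, Jchain -1.20 to 0.51, Mzb1 -1.39 to 0.08 and Igkv5-39 -1.41 to 0.78, and apart from Ighg1 and the 18-month Mzb1 value the upper end came without middle-aged replicate 3.

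The expected number of variable segments at a common depth was 10 in middle-aged and 9.82 in aged livers. Pearson correlations that no longer passed adjustment were, for Jchain with Mzb1, 0.682 without the 2 farthest livers, 0.627 without middle-aged replicate 3 and young replicate 3, and 0.467 and 0.967 within sets, for Jchain with Igkc, 0.931 and 0.914 within sets of 6, and for Ighm with Jchain, 0.719, 0.705, 0.675 and 0.867 in the same order. Spearman rho did not pass in these settings either. It also failed for Jchain with Igkc without the 2 farthest livers (0.721, permutation test, adjusted p = 0.117). On deviations from group means it failed for Jchain with Mzb1 and Ighm with Jchain. Jchain with Igha turned to -0.144 within replicates 3 and 4 and to -0.0832 on deviations from group means, and Ighm with Cd79b to -0.45 within replicates 1 and 2.

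Depth limits all single variable segments and the IgG genes in young livers. Isotype shares moved by less than the SD between livers under each alternative.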
